A study of Mus musculus with 44 samples.

Results

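The 114 array features described here carry the names of interleukins, CC and CXC chemokines, interferons, tumour necrosis factor (TNF) and TNF receptor superfamily members, colony-stimulating factors, transforming growth factor beta (TGF-beta) and the receptors of these signals. They were chosen by name alone: a feature was taken when its name began with IL, CCL or CCR and a digit, with CXCL, CXCR, TNF or IFN, with CSF and a digit, or with TGFB followed by R or a digit. The rule found 114 of 9554 features, which stand for 108 names, since 6 names have 2 features each. Of the 114, 104 matched a mouse gene symbol, 6 matched 1 synonym, 1 matched several synonyms and 3 (CCL18, CCL4L1 and TNFRSF10C) matched none. A few of the names are no cytokine or receptor: the rule also took Tnfaip1, Tnfaip2, Tnfaip3 and Tnfaip6, which are named after their induction by TNF, Tgfb1i1, an adaptor protein of focal adhesions, and Il1rapl1 and Il1rapl2, synaptic relatives of the interleukin-1 receptor accessory protein.

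The series is titled as a comparison of control mice with mice in sodium craving. Adult male C57/Bl6 mice gave RNA for 23 arrays of hypothalamus and 21 of the brain without it, called the rest of the brain or brain here. Each tissue has 5 groups: untreated control (4 hypothalamus and 4 brain arrays), ACTH (5 and 4), ACTH gratified (6 and 5), furosemide (4 and 4) and furosemide gratified (4 and 4). ACTH is the pituitary hormone that drives the adrenal cortex to release glucocorticoids, and furosemide is a loop diuretic, which raises the loss of sodium in urine. The labels used here name no dose, duration or form of gratification and do not say which arrays share an animal. The p-values therefore cover only the variation among these samples, part of which may be technical. Every array set tissue RNA (Cy5) against the same commercial mouse reference RNA (Cy3), and a value is taken here as the log2 ratio of tissue over reference; the labels used here state neither the base of the logarithm nor the direction, and the fold values rest on that base. A value below 0 therefore means less of the transcript than in the reference RNA, and values of different features are not on a common scale of abundance.

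Cytokines are secreted signals by which immune cells, glia and other cells change each other's growth, movement and gene expression, and chemokines are the branch that steers migrating cells through G protein-coupled receptors. Interferon and many interleukin receptors signal through Janus kinases and STAT factors, TNF and interleukin-1 receptors through adaptors to NF-kB, and TGF-beta receptors through SMAD proteins. In the healthy brain most of these genes are weakly transcribed, while microglia depend on the receptor Csf1r for survival. Glucocorticoids, which ACTH releases, are known to repress many inflammatory genes.

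The clearest differences of the family lay between ACTH-treated and untreated mice. Csf1r and Ifngr1 fell in ACTH and in ACTH gratified mice of both tissues, and Il18, Csf1, Il6st and Ccl27a fell in both ACTH groups of the rest of the brain and in the gratified group of the hypothalamus. Tgfb1 rose in both ACTH groups of the hypothalamus. More members rose than fell in each of the 4 comparisons of ACTH groups with control, as counted below beside all features. Il6ra, Il2rg and TNFRSF10C rose in all 4. A part of the rises came from features with tied values, which are described next. In furosemide mice 1 member, Ccr4, passed the test, in the rest of the brain. No member passed the test between gratified and ungratified mice of either treatment.

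On every array some features hold exactly the same value as another feature, and such a value is called tied here. A floor set for weak spots would leave such ties, but spot intensities were not used here and whether the ties mark weak spots was not tested. The median tied value lay at 0.33 on the 20 ACTH and ACTH gratified arrays and near 0.20 on the others (0.21 and 0.20 in the 2 sets of description numbers that hold them). Tied values made up 33.3 to 54.4% of the members on each ACTH array and 2.63 to 32.5% on each of the 24 other arrays. Over all features the averages were 24.4% on ACTH arrays, and 9.69 and 8.84% in the 2 other sets. Of the 114 members, 90 were tied on a larger share of the ACTH arrays than of the other arrays, 5 on a smaller share and 19 on no array at all. Members tied on more than 50% of the 44 arrays numbered 36, or 31.6%, against 12.3% of all features.

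**Figure D1:**
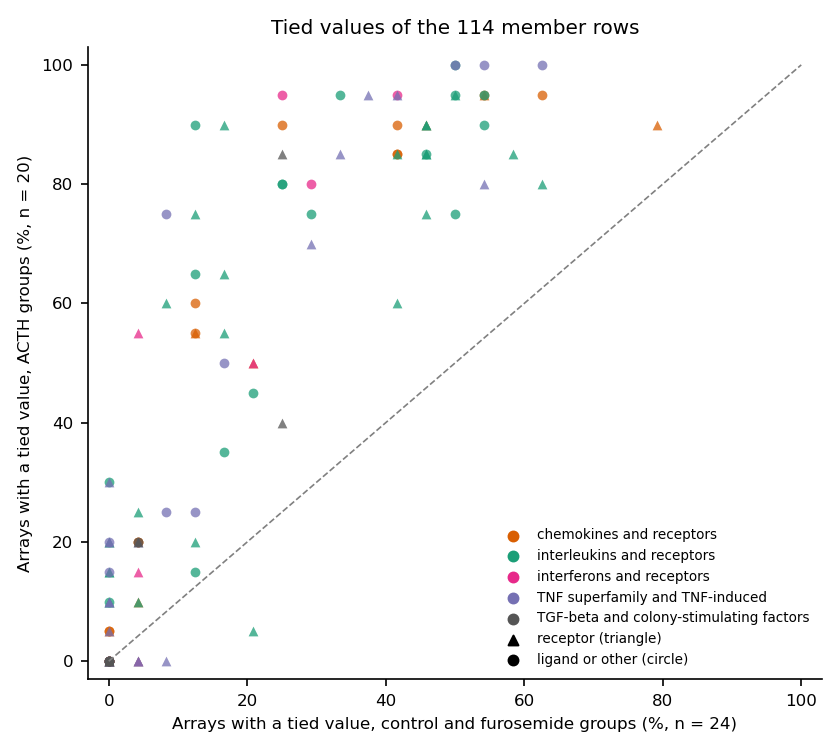
Share of arrays with a tied value for each of the 114 member features, on the 24 control and furosemide arrays (x axis, %) and on the 20 ACTH arrays (y axis, %), with the family in colour, triangles for receptors and circles for ligands and others; overlapping points hide each other. Of the 114, 90 lie above the dashed line of equal shares, and 19 lie at 0 on both axes.

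Descriptions end in a number, and those of the 20 arrays of ACTH-treated mice, gratified or not, all begin with 4, unlike any other. The labels used here do not say what the number means, so the ACTH treatment cannot be told apart from whatever sets that number series off. Hypothalamus ACTH gratified replicate 4 stood apart from its group, with a mean correlation of 0.77 with the other 5 arrays over all features, against 0.891 or more for every other array with its own group, and with 54.4% of its members tied. As a check of the tissue and of the ratio's direction, the mean over 8 features of neuronal markers lay between 1.44 and 2.08 on the 44 arrays. A size is given below only where a feature was tied on at most 50% of the arrays of each compared group, and such features are called measured; rose, fell, higher and lower mean an adjusted p under 0.05 (limma, Benjamini-Hochberg over all 9554 features), and errors after a difference are standard errors.

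In the rest of the brain, 27 members rose and 10 fell with ACTH, and 33 rose and 10 fell in ACTH gratified mice. Those 37 and 43 of 114 members stand beside 30% and 32.7% of all features called in the same comparisons, so the share of members called (32.5 and 37.7%) was close to that of all features. By direction, 9.29% of all features rose and 20.7% fell with ACTH, and 11.5% rose and 21.2% fell in the gratified group. In the hypothalamus 15 members rose and 2 fell with ACTH, beside 10.5% of all features called (4.49% higher, 6.03% lower), and 11 rose and 7 fell in ACTH gratified mice, beside 12.6% (4.67% higher, 7.97% lower). The median difference of the members was 0.12 with ACTH and 0.08 in gratified mice in the hypothalamus, and 0.12 and 0.13 in the rest of the brain, where that of all features was -0.02, -0.01, -0.04 and -0.04. The ACTH and ACTH gratified comparisons of a tissue share its 4 control arrays.

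**Figure D2:**
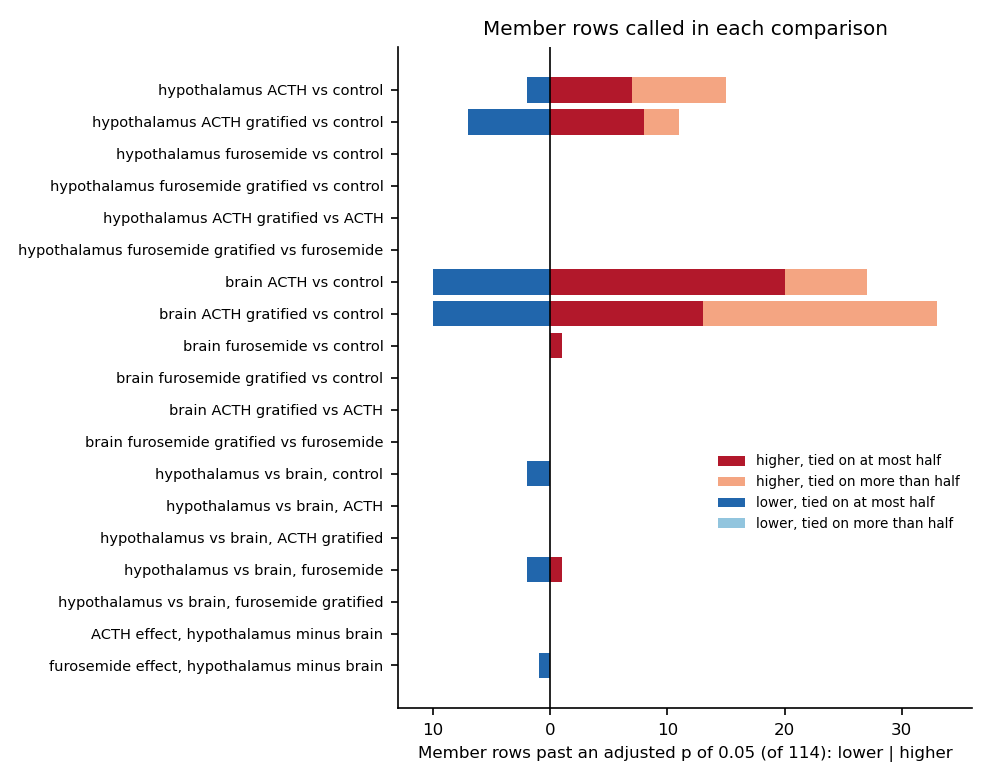
Number of member features (of 114) past an adjusted p of 0.05 in each of the 19 comparisons, drawn to the right for higher and to the left for lower, with lighter bars for features tied on more than 50% of the arrays of a compared group. The 4 comparisons of ACTH groups with control hold 115 of the 122 calls, and every lower call is a measured feature.

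The called members differed in how often they were tied. Members tied on no array of either group numbered 39, 31, 31 and 34 (hypothalamus first). Of these 3, 2, 4 and 4 rose and 2, 7, 8 and 9 fell. Rises thus outnumbered falls in the hypothalamus with ACTH, and falls outnumbered rises in the other comparisons. Over all features, whatever their ties, falls outnumbered rises in each comparison. They made up 6.03, 7.97, 20.7 and 21.2% against 4.49, 4.67, 9.29 and 11.5% for rises, in the same order. Once tied values were treated as missing, a setting chosen after seeing the data, 5 rises and 2 falls passed the threshold in the hypothalamus with ACTH, 8 and 7 in gratified mice, 15 and 10 in the brain with ACTH and 11 and 11 in gratified mice. Of the rises, 15 of 15, 11 of 11, 27 of 27 and 32 of 33 moved nearer to the median tied value of ACTH arrays (0.33). Of the falls 0 of 2, 2 of 7, 3 of 10 and 3 of 10 did. Every rise began from a control mean below that value, where nearly any rise moves nearer, so this count cannot decide. The part of tied values in the rises was not tested beyond these counts.

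Csf1r, the receptor for the macrophage growth factors Csf1 and Il34, was tied on no array. Its values were 0.09, 0.02, 0.48 and 0.16 in brain controls, -0.27, -0.17, -0.23 and -0.51 with ACTH, and -0.39, -0.27, -0.56, -0.29 and -0.24 in ACTH gratified mice. All 9 brain ACTH values lay below all 4 controls. The difference was -0.48 ± 0.113 with ACTH (1.39-fold lower, limma adjusted p = 0.00419) and -0.54 ± 0.108 in gratified mice (1.45-fold lower, limma adjusted p = 0.00103). In the hypothalamus the controls read 0.32, 0.05, 0.12 and -0.09, ACTH mice -0.04, -0.20, -0.43, -0.17 and -0.30, and gratified mice -0.27, -0.24, -0.50, -0.34, -0.29 and -0.20. Here 1 ACTH array lay above the lowest control, and the gratified group lay below all controls. The hypothalamic differences were -0.33 ± 0.083 (limma adjusted p = 0.0142) and -0.41 ± 0.079 (limma adjusted p = 0.00176); the first passed the threshold in 8 of 9 fits with 1 array left out. Furosemide values ran from 0.10 to 0.18 in the hypothalamus, within the range of the controls, and from -0.02 to 0.13 in the brain, where 2 of 4 lay below the lowest control (difference -0.13 ± 0.113, limma adjusted p = 0.683).

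Markers of microglia were counted beside Csf1r. Of 15 features of 14 such genes (Csf1r among them), 10 fell and 1 rose in the brain with ACTH and 9 fell in gratified mice. In the hypothalamus 3 fell and 1 rose with ACTH and 5 fell in gratified mice. Of all features 20.7 and 21.2% fell in the 2 brain comparisons and 6.03 and 7.97% in those of the hypothalamus. Trem2, a microglial lipid receptor, fell by 0.77 and by 0.80 on the log2 scale in the brain, and Cx3cr1, the receptor for fractalkine, fell by 0.84 and by 0.64. The mean level of the 15 features ranged from -0.09 to 0.27 on brain control arrays, from -0.39 to -0.12 with ACTH and from -0.38 to -0.21 in gratified mice. In the hypothalamus it ranged from -0.06 to 0.10, from -0.20 to 0.12 and from -0.33 to -0.07 in the same order. In the hypothalamus with ACTH the 3 that fell were Csf1r itself, Cx3cr1 and Trem2, and Fcer1g rose by 0.37, while the mean level overlapped that of controls. Of 8 astrocyte features 2, 4, 2 and 2 fell and none rose (hypothalamus first), beside 6.03, 7.97, 20.7 and 21.2% of all features that fell. The 2 of 8 in each brain comparison lay close to that share. Among the astrocyte features Glul, the glutamine synthetase gene, differed by -1.88, -1.75, -1.69 and -1.5 on the log2 scale. The mean level of the astrocyte features ran from 1.61 to 1.70 on hypothalamus control arrays, from 1.02 to 1.30 with ACTH and from 0.98 to 1.29 in gratified mice, without overlap. In the brain it ran from 1.325 to 1.851 in controls, from 0.858 to 1.324 with ACTH and from 1.129 to 1.410 in gratified mice. The gratified range there overlapped the controls. Of 8 neuron features 2 fell in the brain with ACTH (Snap25 and Stmn2, by 0.53 and by 0.28), where 20.7% of all features fell. None passed in the other 3 comparisons. The part of these cell types in the fall of Csf1r was not tested, and in whole tissue fewer cells of a type and less RNA per cell cannot be told apart.

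Csf1, the ligand of Csf1r, was the only colony-stimulating factor on the list, was tied on no array and had 1 of the 5 lowest ratios of the family (mean -1.56 over 44 arrays). It read -1.39, -1.49, -1.51 and -1.57 in brain controls, -1.69, -1.79, -1.66 and -1.73 with ACTH, and -1.67, -1.67, -1.64, -1.80 and -1.83 in gratified mice, again with no overlap. The differences were -0.23 ± 0.068 (limma adjusted p = 0.0168) and -0.23 ± 0.064 (limma adjusted p = 0.00985). In the hypothalamus it fell in gratified mice, by 0.23 ± 0.074 on the log2 scale (limma adjusted p = 0.0458), a call kept in 2 of 10 fits with 1 array left out; with ACTH alone the difference was -0.11 ± 0.077. The receptor subunit Csf2rb, which transmits GM-CSF, interleukin-3 and interleukin-5 signals and has a near-identical mouse relative whose transcript may hybridise to the same spots, has a feature tied on 14 and another tied on 5 of 44 arrays. The first rose in all 4 ACTH comparisons (0.46, 0.34, 0.63 and 0.37, hypothalamus first), and the second rose only in the brain with ACTH (0.86 ± 0.269, limma adjusted p = 0.0216). Csf3r, the G-CSF receptor, was tied on 23 arrays and passed in no comparison.

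Ifngr1, the ligand-binding chain of the interferon gamma receptor, was tied on no array and fell in all 4 comparisons. Brain controls read -0.86, -1.0, -0.80 and -0.87, ACTH mice -1.20, -1.23, -1.14 and -1.24, and gratified mice -1.22, -1.28, -1.12, -1.15 and -1.29. Hypothalamus controls read -0.86, -0.94, -0.92 and -0.89, ACTH mice -1.12, -1.11, -1.17, -1.12 and -1.11, and gratified mice -1.11, -1.07, -1.33, -0.97, -1.24 and -1.28. In both tissues every ACTH array lay below every control. The brain differences were -0.32 ± 0.062 (limma adjusted p = 0.00111) and -0.33 ± 0.058 (limma adjusted p = 0.000404). Those of the hypothalamus were -0.22 ± 0.070 (limma adjusted p = 0.0413) and -0.26 ± 0.067 (limma adjusted p = 0.0116). The hypothalamic ACTH call was kept in 0 of 9 fits with 1 array left out (highest adjusted p 0.113), although the difference stayed between -0.24 and -0.21, and the gratified call was kept in 10 of 10.

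Its partner chain Ifngr2 (tied on 1 array) and the type I interferon receptor chains Ifnar1 (4 arrays) and Ifnar2 (12 arrays) passed in no comparison; the Ifngr2 differences in the ACTH groups lay between -0.10 and 0.05. The lambda interferon receptor chain Ifnlr1, tied on 15 arrays, rose in both brain ACTH groups. The interferons themselves were often tied: the 2 features of Ifna7, a member of a family of near-identical genes, were tied on 23 and 25 arrays and Ifne on 29. Of 21 features of 17 interferon-stimulated genes, none rose and none fell in the hypothalamus with ACTH, 1 rose in gratified mice, and in the brain 3 and 4 rose and none fell. Of all features 4.49, 4.67, 9.29 and 11.5% rose in the same comparisons (hypothalamus first). The list's median difference was 0.09, 0.09, 0.05 and 0.05 in that order, beside -0.02, -0.01, -0.04 and -0.04 for all features. Its measured rises were Rsad2 in the gratified hypothalamus, Irf4 in both brain groups and Irf2 in the gratified brain.

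**Figure D3:**
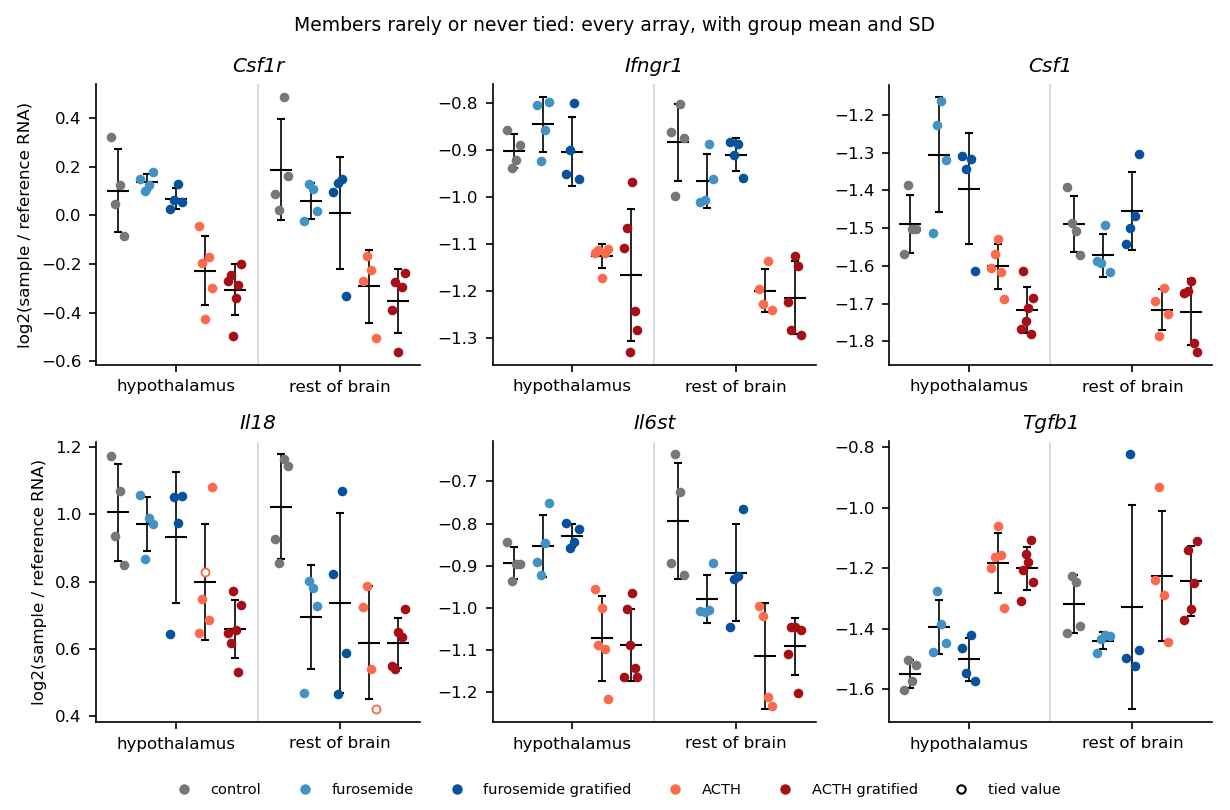
Log2 ratio of tissue over reference RNA on every array for Csf1r, Ifngr1, Csf1, Il18, Il6st and Tgfb1 in the 5 groups of each tissue, with open circles for tied values, horizontal bars for group means and error bars for SD (n = 4 to 6 arrays a group). The ACTH groups lie lowest for the first 5 genes in both tissues, and Tgfb1 is higher in the ACTH groups of the hypothalamus, with means of -1.18 and -1.20 against -1.55 in controls.

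Il6st encodes gp130, the signalling chain shared by receptors of the interleukin-6 family, and was tied on no array. It read -0.89, -0.64, -0.72 and -0.92 in brain controls, -1.0, -1.02, -1.21 and -1.23 with ACTH, and -1.11, -1.05, -1.05, -1.20 and -1.05 in gratified mice. The differences of -0.32 ± 0.080 (limma adjusted p = 0.00587) and -0.30 ± 0.076 (limma adjusted p = 0.006) left no overlap with controls. Brain furosemide mice (-1.01, -1.01, -1.01 and -0.89) lay between the means of the controls and the ACTH groups, at a difference from control of -0.19 ± 0.080 that missed the threshold (limma adjusted p = 0.364). In the hypothalamus Il6st fell in gratified mice (-0.19 ± 0.063, limma adjusted p = 0.044), kept in 2 of 10 fits with 1 array left out, and the ACTH difference was -0.18 ± 0.065 (limma adjusted p = 0.0802).

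The receptor chain that binds interleukin-6, Il6ra, went the other way. Brain controls lay close together at -1.39, -1.46, -1.45 and -1.47, while ACTH mice read -1.33, -0.52, -0.67 and 0.24 (the last tied) and gratified mice -0.86, -0.53, -0.32 (tied), -1.27 and -0.32. The ACTH arrays thus lay above the controls and were spread more widely than them. It rose in all 4 comparisons, by 0.71 ± 0.193 and 0.75 ± 0.186 in the hypothalamus (limma adjusted p = 0.0224 and 0.00964) and by 0.88 ± 0.229 and 0.78 ± 0.217 in the brain (limma adjusted p = 0.0077 and 0.00997). The hypothalamic ACTH call was kept in 5 of 9 fits with 1 array left out and was lost with tied values missing. Of the 44 values, 4 were tied, all on ACTH arrays.

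Il6 itself was tied on 14 arrays, 9 of them in ACTH groups. In the brain it read -0.55 (tied), -0.68, -0.48 (tied) and -0.41 in controls, -0.08, -0.16 (tied), -0.23 (tied) and -0.15 with ACTH, and -0.15 (tied), -0.15, -0.06 (tied), -0.17 and -0.18 in gratified mice. The groups did not overlap, and the rises of 0.37 ± 0.063 (1.30-fold, limma adjusted p = 0.000433) and 0.39 ± 0.060 (1.31-fold, limma adjusted p = 0.000153) held in every alternative that could be fitted, including that with tied values missing. Brain furosemide values ran from -0.56 to -0.50, within the range of the controls. In the hypothalamus Il6 rose with ACTH while tied on 4 of 5 ACTH arrays, so no size is given, and in gratified mice the difference was 0.24 ± 0.085 (limma adjusted p = 0.0632).

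Il18, an inflammasome product of the interleukin-1 family, had 1 of the 5 highest ratios (mean 0.79) and was tied on 2 arrays. It read 0.93, 0.85, 1.17 and 1.15 in brain controls, 0.72, 0.79, 0.54 and 0.42 (tied) with ACTH, and 0.55, 0.54, 0.65, 0.64 and 0.72 in gratified mice, below all controls. It fell by 0.40 ± 0.117 and 0.40 ± 0.111 on the log2 scale (limma adjusted p = 0.0139 and 0.00922). In the hypothalamus it fell in gratified mice (-0.35 ± 0.092, limma adjusted p = 0.0154), and the ACTH difference was -0.21 ± 0.096 (limma adjusted p = 0.162). All 3 calls were lost after quantile normalization, where the adjusted p reached 0.185 in the hypothalamus. Furosemide mice of the brain read 0.47, 0.80, 0.78 and 0.73, all below the controls, with a difference of -0.33 ± 0.117 (limma adjusted p = 0.28). The receptor subunit Il18rap, tied on 6 arrays, fell in brain ACTH gratified mice (-0.36 ± 0.10, limma adjusted p = 0.0107).

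Among the other interleukin features, Il10, which restrains inflammation, was tied on 6 arrays, all in ACTH groups, and rose in the brain by 0.37 ± 0.093 with ACTH and by 0.24 ± 0.088 in gratified mice (limma adjusted p = 0.00616 and 0.0392). Il17f, a T cell cytokine, passed in all 4 ACTH comparisons but was tied on 18 of 20 ACTH arrays and on 3 of the 24 others: controls read -0.81 to -0.74 in the hypothalamus, and tied ACTH values there and in the brain ran from -0.36 to 0.59. Il1b was tied on 22 arrays and Il12b on 27; each rose in at least 1 ACTH comparison while tied on more than 50% of a compared group. Il7 and Il24 were tied on 22 arrays each, Il25 on 16, Il15 on 11 and Il16 on 6. Il12a and Il1a were tied on 31, Il13 on 28, Il17b on 27, and Il17a and Il1f6 on 32.

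Interleukin receptor chains were 27 features. Those tied on at most 7 arrays were Il6st (0), Il17ra (1), Il10rb and Il1rl1 (2 each), Il17rc, Il1r1 and Il2rg (3 each), Il13ra2 and Il6ra (4 each), Il18rap and Il4ra (6 each) and Il12rb1 (7). Il2rg, the common gamma chain, rose in all 4 ACTH comparisons, by 0.29 ± 0.077 and 0.24 ± 0.074 in the hypothalamus and by 0.43 ± 0.121 and 0.36 ± 0.115 in the brain (limma adjusted p = 0.0211, 0.0349, 0.0115 and 0.0209). In the brain it read -1.09, -0.89, -1.17 and -1.02 in controls and -0.66, -0.67, -0.58 (tied) and -0.52 with ACTH, without overlap. The hypothalamic calls were lost with array medians set to 0, and the gratified one was kept in 1 of 10 fits with 1 array left out. Il12rb1, a chain of the interleukin-12 and interleukin-23 receptors, rose in both brain ACTH groups (0.36 ± 0.092 and 0.32 ± 0.087, limma adjusted p = 0.00681 and 0.00875). Il13ra2, the decoy receptor for interleukin-13, rose in both brain groups and in the hypothalamus with ACTH, by 0.25 to 0.35. Il4ra rose only in the brain with ACTH (0.49 ± 0.125, limma adjusted p = 0.00638), where 2 of 4 ACTH values (-0.05 and 0.03) were tied and the other 2 (-0.55 and -0.59) were not, and the call was lost with tied values missing.

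Il1r1, the signalling interleukin-1 receptor, and Il10rb passed in no comparison. The remaining receptor chains were tied more often: the Il13ra1 features on 14 and 28 arrays, Il10ra on 15, the Il1rap features on 17 and 18, Il15ra and Il1rapl2 on 22, Il17rd on 26, Il31ra on 27, Il2rb on 28, Il12rb2 and Il1rapl1 on 29, and both Il17rb features and Il21r on 31. The 2 features of Il1rap, the accessory protein of the interleukin-1 receptor, were not called alike: the second passed in all 4 ACTH comparisons (0.39 ± 0.104 in the brain with ACTH, limma adjusted p = 0.00956, the only one where it was measured), while the first passed in none (0.15 in the same comparison). Whether the features differ was not tested. The 2 features of Il17rb passed in none, and of Il13ra1 only the feature tied on 28 arrays passed, in both brain ACTH groups. Of Ifna7, 1 feature passed in the brain and the other in the hypothalamus with ACTH. In the TNF ligand Tnfsf13 the features opposed each other: the first, tied on no array, fell in hypothalamus ACTH gratified mice (-0.22 ± 0.061, limma adjusted p = 0.0183), and the second, tied on 8 arrays, rose in the brain with ACTH (0.25, limma adjusted p = 0.0365).

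Tgfb1, which dampens microglia and lymphocytes, was tied on no array, rose in both ACTH groups of the hypothalamus and passed in neither of the brain. Its values were -1.60, -1.5, -1.57 and -1.52 in hypothalamus controls, -1.20, -1.16, -1.06, -1.16 and -1.33 with ACTH, and -1.31, -1.21, -1.15, -1.18, -1.11 and -1.25 in gratified mice. All 11 lay above the controls, with differences of 0.37 ± 0.066 (1.29-fold, limma adjusted p = 0.00146) and 0.35 ± 0.064 (1.27-fold, limma adjusted p = 0.00103) that held in every alternative that could be fitted. Furosemide mice (-1.48, -1.28, -1.38 and -1.45) also lay above the controls, at 0.15 ± 0.070 (limma adjusted p = 0.794). In the brain the ACTH differences were 0.09 ± 0.127 and 0.08 ± 0.120. The ACTH difference was not shown to differ between the tissues: hypothalamus minus brain it was 0.28 ± 0.139 (limma adjusted p = 0.695).

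The receptor Tgfbr2, tied on no array, fell in the brain: controls read -0.84, -1.10, -0.91 and -0.94, ACTH mice -1.38, -1.09, -1.20 and -1.45, and gratified mice -1.49, -1.43, -1.21, -1.05 and -1.46. In each ACTH group 1 array overlapped the controls, and the differences were -0.34 ± 0.095 and -0.38 ± 0.090 (limma adjusted p = 0.0125 and 0.00351). The co-receptor Tgfbr3 (tied on 0 arrays) and the adaptor Tgfb1i1 (0) passed in no comparison, and Tgfb3 (5 arrays) rose in the brain with ACTH (0.38 ± 0.118, limma adjusted p = 0.0202), a call kept in 4 of 8 fits with 1 array left out. Of 16 features of 14 SMAD pathway genes, none passed in either hypothalamic comparison. In the brain 1 fell with ACTH, and 3 rose and 2 fell in gratified mice, beside 30 and 32.7% of all features called. The only measured rise was Smad6.

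Upstream sequence is shown for 4 of the genes that fell in the gratified mice of both tissues and for Tgfb1, which rose in both ACTH groups of the hypothalamus; the genes were picked after their values were seen, so that the regulatory stretch of each can be read beside its values. Each run is the 250 bases before the RefSeq start of the gene (GRCm38.p6), 5′ to 3′ on the gene's strand, with capitals for matches to the motifs TGTTCT (a glucocorticoid receptor half-site) and TTCNNNGAA (STAT), and the NF-kB consensus, on both strands. They lie at chr10:19591699-19591948 (Ifngr1, plus strand), chr13:112463820-112464069 (Il6st, plus), chr3:107760470-107760719 (Csf1, minus), chr9:50554450-50554699 (Il18, plus) and chr7:25686752-25687001 (Tgfb1, plus).
Ifngr1: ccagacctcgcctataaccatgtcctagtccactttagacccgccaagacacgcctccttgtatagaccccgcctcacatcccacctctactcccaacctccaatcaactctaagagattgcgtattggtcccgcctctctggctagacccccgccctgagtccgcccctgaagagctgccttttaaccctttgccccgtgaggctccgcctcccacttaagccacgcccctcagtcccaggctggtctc
Il6st: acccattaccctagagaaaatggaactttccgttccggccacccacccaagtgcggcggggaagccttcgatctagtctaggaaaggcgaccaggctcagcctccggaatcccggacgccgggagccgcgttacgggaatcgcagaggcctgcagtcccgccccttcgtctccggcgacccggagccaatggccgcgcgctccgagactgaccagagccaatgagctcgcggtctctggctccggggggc
Csf1: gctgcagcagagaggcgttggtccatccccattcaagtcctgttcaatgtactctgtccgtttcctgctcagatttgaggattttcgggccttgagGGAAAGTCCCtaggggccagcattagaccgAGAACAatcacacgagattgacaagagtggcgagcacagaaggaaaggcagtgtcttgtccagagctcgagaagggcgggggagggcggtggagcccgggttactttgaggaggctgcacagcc
Il18: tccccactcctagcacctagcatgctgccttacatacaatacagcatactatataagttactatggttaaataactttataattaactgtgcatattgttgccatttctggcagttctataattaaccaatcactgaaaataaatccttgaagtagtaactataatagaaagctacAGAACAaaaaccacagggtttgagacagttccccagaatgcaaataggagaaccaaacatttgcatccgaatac
Tgfb1: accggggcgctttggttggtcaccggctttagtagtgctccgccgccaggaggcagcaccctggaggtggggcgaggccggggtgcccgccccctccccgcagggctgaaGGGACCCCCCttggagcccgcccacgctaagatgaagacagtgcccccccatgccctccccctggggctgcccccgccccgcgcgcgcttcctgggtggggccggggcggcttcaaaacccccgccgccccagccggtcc
Ifngr1 and Il6st hold none of the 3 motifs in these windows. Csf1 holds an NF-kB match from -154 to -145 and a half-site from -124 to -119 relative to the start, Il18 a half-site from -74 to -69, and Tgfb1 an NF-kB match from -140 to -131. In the 32851 windows of the same length upstream of all RefSeq starts in the table, the half-site was found in 16.1%, the STAT motif in 7.02% and the NF-kB consensus in 7.25%. Of the 104 member symbols, 76 had a window that could be used here, and 14.5%, 13.2% and 14.5% of these held the 3 motifs in the same order. A match is a stretch of letters, not a bound site.

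Chemokines were 18 features. Cxcl14 and Ccl27a had the highest ratios of the whole family, with means of 1.54 and 1.52, and Ccl2 and Cxcl1, attractants of monocytes and of neutrophils, were among the lowest at -1.84 and -1.67; Cxcl14, Ccl2 and Cxcl1 were tied on no array and passed in no comparison. Cxcl14 read 1.5 to 1.62 in hypothalamus controls, 1.10 to 1.45 with ACTH and 1.11 to 1.59 in gratified mice, at differences of -0.20 ± 0.088 and -0.21 ± 0.085 (limma adjusted p = 0.141 and 0.0998).

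Ccl27a, a skin chemokine whose feature was tied on 1 array, fell in 3 comparisons. Brain controls read 1.96, 1.78, 2.05 and 2.05, ACTH mice 1.58, 1.48, 0.89 and 0.45 (tied), and gratified mice 1.59, 1.40, 0.95, 1.38 and 1.35, all below the controls. The differences were -0.86 ± 0.191 and -0.63 ± 0.181 (limma adjusted p = 0.00277 and 0.0126). In the gratified hypothalamus it was -0.49 ± 0.145 (limma adjusted p = 0.0303), where replicate 4, the array that stood apart, read 0.44 and the other 5 read 0.92 to 1.47; the call was kept in 6 of 10 fits with 1 array left out.

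Ccl5, a T cell and monocyte attractant tied on no array, rose in both gratified groups. Brain controls read -1.46, -1.73, -1.62 and -1.46, and gratified mice -1.31, -1.28, -1.24, -1.26 and -1.28, without overlap. The difference was 0.29 ± 0.070 in the brain (limma adjusted p = 0.00351) and 0.38 ± 0.107 in the hypothalamus (limma adjusted p = 0.0243). In the hypothalamus replicate 4 read -0.71 against -1.48 to -1.27 in the other 5, and leaving out 1 array gave differences from 0.27 to 0.43. With ACTH alone the differences were 0.29 ± 0.111 in the hypothalamus and 0.15 ± 0.073 in the brain (limma adjusted p = 0.0962 and 0.119).

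CCL18, tied on no array, fell in the brain with ACTH (-0.43 ± 0.132, limma adjusted p = 0.0187), and Ccl25, tied on 14 arrays, rose in both brain ACTH groups (0.49 ± 0.096 and 0.26 ± 0.091, limma adjusted p = 0.00113 and 0.0324). Cxcl12, the ligand of Cxcr4, was tied on 27 arrays and rose in the brain with ACTH (0.43 ± 0.136, limma adjusted p = 0.0226), a call lost with tied values missing. The interferon-induced Cxcl10, tied on 15 arrays, passed in the hypothalamus with ACTH while tied on more than 50% of that group. Of the other chemokines, Ccl7 was tied on 0 arrays, Cxcl16 on 1, CCL4L1 and Cxcl5 on 5, Cxcl9 on 24, Cxcl13 on 27, Ccl22 on 28, Ccl11 on 32 and Ccl20 on 34.

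Chemokine receptors were 7 features: Ackr3, a scavenger receptor for Cxcl12 (tied on 1 array), Cxcr4 (3), Ccr4 (14), Ccr10 (15), Ccr7 (29), IL8RA (32) and Ccr6 (37, the most of any member). Cxcr4 rose in both brain ACTH groups: controls read -1.29, -1.21, -1.16 and -1.27, ACTH mice -0.86, -0.99 (tied), -1.08 and -0.68, and gratified mice -0.96, -0.90, -0.65, -0.85 and -0.95, without overlap. The differences were 0.33 ± 0.098 and 0.37 ± 0.093 (limma adjusted p = 0.0161 and 0.00508). Ccr4, found on T helper cells, passed in all 4 ACTH comparisons and was measured in 2 of them, at 0.42 ± 0.092 in the gratified hypothalamus and 0.50 ± 0.088 in the brain with ACTH (limma adjusted p = 0.00421 and 0.000539). Markers of T and B cells were counted beside these receptors: of 9 features of 9 genes, 1 rose in each hypothalamic comparison, 2 in the brain with ACTH and 3 in gratified mice, and none fell. Of all features 4.49, 4.67, 9.29 and 11.5% rose in these comparisons (hypothalamus first), and 10.5, 12.6, 30 and 32.7% were called in either direction. The measured features among them were Cd3e and, in the gratified brain, Ms4a1. Cd3e, a chain of the T cell receptor complex, rose by 0.95 and 0.87 in the brain. In brain controls the mean level of the 9 features ranged from -0.71 to -0.53. It ranged from -0.51 to -0.33 with ACTH and from -0.49 to -0.41 in gratified mice. In the hypothalamus the ranges were -0.624 to -0.505 in controls, -0.521 to -0.365 with ACTH and -0.511 to -0.278 in gratified mice. The ACTH groups there overlapped the controls. These means include tied values: in the brain 1 feature was tied on most arrays in controls, 3 with ACTH and 2 in gratified mice. In the hypothalamus these counts were 1, 2 and 2. The part of the T and B cell markers in the result was not tested.

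**Figure D4:**
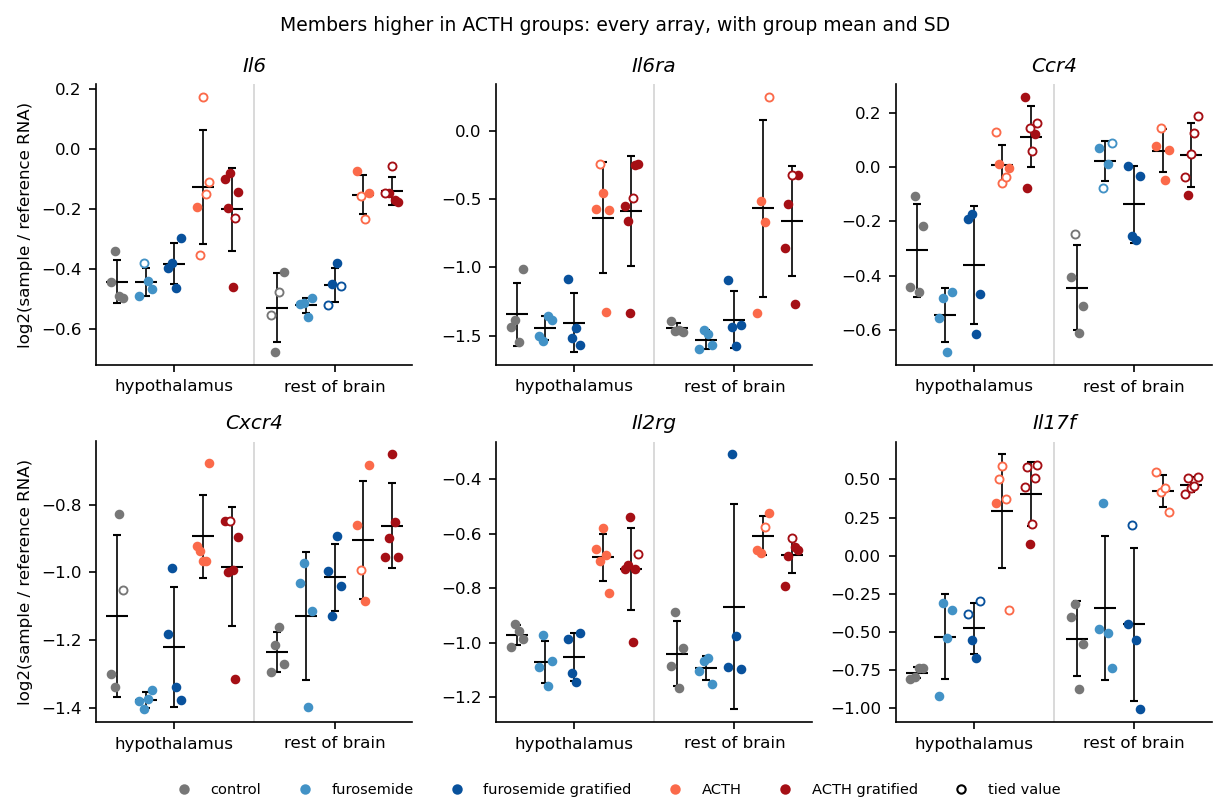
Log2 ratio of tissue over reference RNA on every array for Il6, Il6ra, Ccr4, Cxcr4, Il2rg and Il17f in the 5 groups of each tissue, with open circles for tied values, horizontal bars for group means and error bars for SD (n = 4 to 6 arrays a group). Il17f is tied on 18 of 20 ACTH arrays, Cxcr4 and Il2rg on 2 and 3 of them, and Ccr4 in brain furosemide mice lies between -0.08 and 0.09.

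Ccr4 was also the 1 member that changed with furosemide. Brain controls read -0.40, -0.25 (tied), -0.61 and -0.51 and furosemide mice 0.07, -0.08 (tied), 0.01 and 0.09 (tied), without overlap, at a difference of 0.47 ± 0.088 (limma adjusted p = 0.0394; 0.0942% of all features were called). Hypothalamus controls read -0.44, -0.11, -0.46 and -0.22 and furosemide mice -0.56, -0.48, -0.68 and -0.46, at a difference of -0.24 ± 0.10 (limma adjusted p = 0.735). The furosemide difference was 0.71 ± 0.133 lower in the hypothalamus than in the brain (limma adjusted p = 0.0154, 0.0628% of all features called), and Ccr4 was lower in the hypothalamus of furosemide mice than in the rest of the brain by 0.57 ± 0.094 (limma adjusted p = 0.000218, 2.47% of all features called). The brain furosemide call was kept in 2 of 8 fits with 1 array left out, and both it and the difference between tissues were lost with tied values missing.

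Among the 15 TNF receptor superfamily features, Tnfrsf19, an orphan receptor of progenitor cells, had 1 of the 5 highest ratios (mean 0.79) and was tied on 1 array. It read 1.21, 1.31, 0.67 and 1.51 in brain controls and 0.73, 0.75, 0.79 and 0.61 with ACTH, so 1 control lay within the ACTH range. It fell in both brain ACTH groups (-0.46 ± 0.134 and -0.50 ± 0.127, limma adjusted p = 0.0155 and 0.00604). The hypothalamic differences were -0.01 ± 0.109 and -0.20 ± 0.105. In untreated mice it was lower in the hypothalamus than in the brain (-0.47 ± 0.127, limma adjusted p = 0.0312, 2.82% of all features called), a call kept in 2 of 8 fits with 1 array left out.

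Tnfrsf12a, the receptor for TWEAK, had 1 of the 5 lowest ratios (mean -1.78), was tied on no array and passed in no comparison, as did the TNF receptors Tnfrsf1b (0 arrays tied) and Tnfrsf21 (2). Tnfrsf1a, the main TNF receptor, was tied on 1 array and rose in brain ACTH gratified mice (0.59 ± 0.211, limma adjusted p = 0.0377), where the 5 arrays read 0.30, -1.20, -1.30, -0.81 and -0.99 and the controls -1.42 to -1.36. Leaving out 1 array brought that difference to between 0.31 and 0.71, and the call was kept in 4 of 9 fits. TNFRSF10C, tied on 2 arrays, rose in all 4 ACTH comparisons, by 0.32, 0.30, 0.28 and 0.34 (hypothalamus first). Tnfrsf18 was tied on 2 arrays, Tnfrsf9 on 4, Tnfrsf13b on 5, Tnfrsf4 on 6, Tnfrsf17 on 21, Tnfrsf25 on 25, the osteoprotegerin gene Tnfrsf11b (which rose in both brain ACTH groups) on 28, and Tnfrsf11a and Tnfrsf8 on 29.

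The 8 TNF ligands held the 2 Tnfsf13 features above (0 and 8 arrays tied), Tnfsf8 (3), Tnfsf9 (4), Tnfsf13b (14), Tnfsf10 (32), Tnfsf14 (33) and Tnfsf15 (35). Tnfsf10, the death ligand TRAIL, was lower in the hypothalamus than in the brain of untreated mice (-0.38 ± 0.111, limma adjusted p = 0.0489) and was tied on 2 of the 4 brain arrays; in the hypothalamus it passed in both ACTH comparisons while tied on all 20 ACTH arrays. Of the TNF-induced genes, Tnfaip1 was tied on no array and fell in the brain without overlap: controls read -0.66 to -0.56, ACTH mice -1.03 to -0.76 and gratified mice -0.91 to -0.88 (-0.33 ± 0.066 and -0.30 ± 0.063, limma adjusted p = 0.00131 and 0.00138). Tnfaip2 (0 arrays tied, mean -1.59) and Tnfaip6 (17 arrays, mean 0.54), at either end of the family, passed in no comparison, and the NF-kB inhibitor Tnfaip3, tied on 7 arrays, rose in the brain with ACTH (0.40 ± 0.15, limma adjusted p = 0.0472).

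Lists of signalling genes outside the family were counted in the same fits. Of all features 4.49, 4.67, 9.29 and 11.5% rose and 6.03, 7.97, 20.7 and 21.2% fell in the ACTH comparisons with control (hypothalamus first). Of 27 features of 24 JAK-STAT genes, 4 rose and 4 fell in the brain with ACTH and 2 rose and 4 fell in gratified mice; Stat3, which relays gp130 signals, fell by 0.66 and by 0.58 on the log2 scale, and Socs3, its feedback inhibitor, rose by 0.28 and 0.23 (limma adjusted p = 0.00947 and 0.0199). In the hypothalamus 1 rose with ACTH, and 2 rose and 2 fell in gratified mice. Of 33 features of 29 NF-kB, Toll, interleukin-1 and TNF adaptor genes, 3 and 2 fell and none rose in the hypothalamus, and 6 and 6 fell while 1 and 3 rose in the brain. The only measured rise was Irak4, in the gratified brain. Irak1, the kinase of interleukin-1 and Toll receptors, fell in all 4 comparisons, by 0.32, 0.35, 0.43 and 0.44 (hypothalamus first), and the NF-kB subunit Rela fell in the brain by 0.44 and by 0.38. Of 22 features of 18 chemokine and cytokine genes that the naming rule does not take (1 of them, Ackr3, sits in both lists through its older name), 1 rose and 1 fell in each hypothalamic comparison, and 5 rose and 4 fell in each brain comparison. The measured rises were Osmr in the gratified hypothalamus and in the brain with ACTH, and Cntfr and Flt3l in the gratified brain. Cx3cr1 fell in both hypothalamic groups (by 0.66 and by 0.87), and Osmr, the oncostatin M receptor, rose in the gratified one (0.82).

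**Figure D5:**
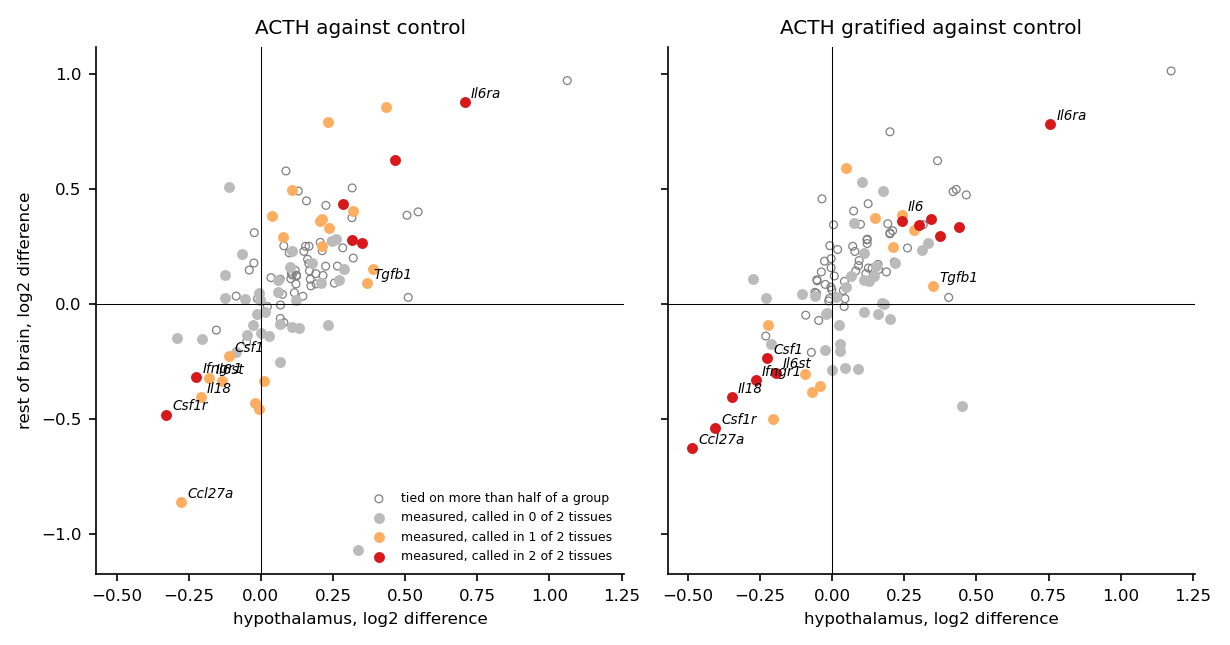
Difference from control (log2) of each member in the hypothalamus (x axis) and in the rest of the brain (y axis), for ACTH mice (left) and ACTH gratified mice (right); filled points were tied on at most 50% of the arrays of each group, with colour for the number of tissues in which they passed an adjusted p of 0.05, and open points were tied more often. Csf1r and Ifngr1 lie in the lower left of both panels, and Il6ra lies in the upper right.

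Across the tissues 9 members passed in all 4 ACTH comparisons, of which 7 rose (Ccr4, the first Csf2rb feature, Il17f, the second Il1rap feature, Il2rg, Il6ra and TNFRSF10C) and 2 fell (Csf1r and Ifngr1), and no member rose in one and fell in another. Over all 9554 features 4.27% passed in all 4, 1.26% higher in each and 3.01% lower in each; within a tissue the comparisons share their controls. The ACTH difference itself was not shown to differ between hypothalamus and brain for any member (limma, 0 of 114 and 0% of all features; 12 members and 680 features at an unadjusted p under 0.05). Between gratified and ungratified ACTH mice limma called 0 members in the hypothalamus (0.0105% of all features; 10 members at an unadjusted p under 0.05) and 0 in the brain (0.0628%; 3 members).

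With furosemide, limma called 0 members in the hypothalamus (0.0209% of all features; 8 members at an unadjusted p under 0.05). It called 0 in gratified furosemide mice against control in the hypothalamus and in the brain (0% of all features in each; 2 and 12 members unadjusted), and 0 against ungratified furosemide mice (0.0105 and 0% of all features; 3 and 5 members unadjusted). Between the tissues it called 0 members in ACTH mice (1.22% of all features; 4 unadjusted), in ACTH gratified mice (0.555%; 3) and in furosemide gratified mice (1.63%; 6). In furosemide mice it called 3: Ccr4 as above, the second Ifna7 feature, lower in the hypothalamus by 0.88 ± 0.200 (limma adjusted p = 0.00942) with 2 of 4 brain values tied, and Csf1, higher in the hypothalamus by 0.27 ± 0.072 (limma adjusted p = 0.0331). Csf1 read -1.51, -1.23, -1.16 and -1.32 in the hypothalamus and -1.59, -1.59, -1.49 and -1.62 in the brain of these mice, with 1 hypothalamic value inside the brain range, and the call was kept in 2 of 8 fits with 1 array left out.

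In control and in furosemide mice every hypothalamus array and every brain array also carry different forms of the description number. With that form as a factor, none of the 5 calls between the tissues passed the threshold: the adjusted p (limma) was 0.933 for Tnfrsf19 and 0.128 for Tnfsf10 in controls, and 0.512 for Ccr4, 0.337 for Csf1 and 0.591 for the second Ifna7 feature in furosemide mice. CCL18 passed instead, lower in the hypothalamus by 0.92 ± 0.192 in controls and by 0.80 ± 0.192 in furosemide mice (limma adjusted p = 0.0137 and 0.0478). Without the factor its differences were -0.38 and -0.26 (limma adjusted p = 0.236 and 0.454). The effect of the form rests only on the furosemide gratified arrays, since no other group holds 2 forms. That limit holds for CCL18 and for the 5 calls alike. The furosemide difference of Ccr4 between the tissues passed under that factor as well (limma adjusted p = 0.00405). Control and furosemide arrays of a tissue share 1 form, so the factor could not change this difference. It was -0.71 with and without the factor, so the call is no check on the form. In gratified furosemide mice of the hypothalamus, CCL4L1 and Tnfrsf1a passed under the factor, higher by 1.21 ± 0.237 and 1.14 ± 0.221 than in controls (limma adjusted p = 0.0225 and 0.0199, with 21 of all features called). These values rest on 2 of the 4 gratified arrays; without the factor the differences were 0.52 and 0.47, at an adjusted p (limma) of 1.00 each.

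Of the 114 members, 58 passed in at least 1 comparison, where 46.8% of all features did, and 56 in none, and 19 of those 56 were tied on more than 50% of the arrays. Called members not described above were tied on more than 50% of a compared group, or passed in a single comparison or in 2.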

How the data were processed

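The 2-colour arrays of 44 tissue samples were analysed from 1 deposited table of 9554 features. Per the labels, tissue RNA carried Cy5 and a universal mouse reference RNA Cy3 on every array, without dye swap. The deposited values are log ratios normalized by the authors with limma, per the submitters' processing notes; version, background correction, normalization, log base, floor and ratio direction are not stated in the labels used here. The deposited values were taken as log2 of tissue over reference; the neuronal marker levels bear on the direction only. Signal depth is unknown, and the number of arrays limits precision.

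Groups follow the labels. Differences were fitted with limma 3.58.1 in R 4.3.3 (lmFit, eBayes, two-sided) on the deposited values, per tissue, or over all 44 arrays for tissue comparisons and interactions, with Benjamini-Hochberg adjustment over all features and a threshold of 0.05. The fits were tested on simulated data. Replicate numbers were not used as pairs: deviations of same-numbered arrays correlated between -0.28 and 0.27. Members, marker lists and pathway lists were chosen with earlier results of these data known. Named were the 30 measured called features with the smallest adjusted p, the 5 such among those tied on more than 50% of a compared group, a fixed list of cytokine genes, and the 5 highest and 5 lowest mean ratios; others are named with their ties or calls. Alternatives were quantile normalization, array medians set to 0, a filter on tied features, a replicate block, the form of the description number as a factor, only the groups compared, array weights, each array left out, a stricter tie limit and, chosen after seeing the data, tied values set to missing. Gene names and upstream sequences come from RefSeq (GRCm38.p6).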

Additional observations from a re-analysis of the deposited data

Results flagged for a closer look

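In 6 groups a single array stood far from the others of its group by Dixon's criterion, and 1 difference between tissues passed its test. CCL18 in brain ACTH replicate 4 read -1.71, against -1.30 to -1.23 in the other 3. Ccl5 in hypothalamus ACTH gratified replicate 4 read -0.71, against -1.48 to -1.27. On the same array the first Tnfsf13 feature read -1.31, against -1.12 to -1.03. Ifngr1 in hypothalamus ACTH replicate 3 read -1.17, against -1.12 to -1.11, a small gap in a narrow group. Il6 in brain ACTH gratified replicate 3 read -0.059, a tied value, against -0.18 to -0.15. Tnfrsf19 in hypothalamus control replicate 2 read 0.85, against 0.65 to 0.67.

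Listed are features that were measured and called in a comparison using that group. Over all 55 named features, 57 of 550 groups (10.4%) held such an array, where chance gives about 1 in 20; 14 of the 57 values were tied, and 12 lay on hypothalamus ACTH gratified replicate 4, the array with the lowest correlation with its group.

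For Ccr4 the furosemide difference was -0.71 on the log2 scale in the hypothalamus relative to the brain (limma adjusted p = 0.0154).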

How the results depend on the processing

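No call of a member reversed under any alternative. Of 122 calls, 42 passed under every alternative that was fitted for them and 53 in every fit with 1 array left out. Tied values set to missing could be fitted for 101 of the calls, the filter on tied features for 96 and the number form for 7.

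Counts that moved by over 1.5 times were as follows. The 17 calls of hypothalamus ACTH became 10 with array medians set to 0, 11 with a replicate block, 32 with array weights and 7 with tied values missing. Calls over all features moved as well, from 1005 to 886, 776, 2753 and 797 in the same order. The 18 of the gratified hypothalamus became 11 after quantile normalization (9 higher, 2 lower), 9 with a replicate block and 6 with only the groups compared. Over all features 1207 calls became 920, 797 and 498. Array medians set to 0 gave 6 higher and 7 lower members, against 11 and 7, and 1252 calls over all features. The 43 of the gratified brain became 22 with tied values missing, where calls over all features went from 3126 to 2379. The 1 brain furosemide call became 0 under quantile normalization, the filter, the replicate block, only the groups compared and tied values missing, and 3 with array weights. The 2 tissue calls in controls became 0 under quantile normalization, medians set to 0 and only the groups compared. They became 1 under the filter, the replicate block and tied values missing, and 4 with array weights. The number form also gave 1 call, but it was CCL18 and not 1 of the 2. The 3 in furosemide mice became 19 with array weights, and the number form gave 1 call, again CCL18 and not 1 of the 3. The 0 in ACTH mice became 1 with array weights. The 1 furosemide interaction became 0 with only the groups compared or tied values missing and 3 with array weights. With the number form, gratified furosemide mice of the hypothalamus had 2 calls against control and 2 against furosemide, in place of 0. With array weights the calls over all features also rose, from 9 to 182 for brain furosemide and from 6 to 507 for the furosemide interaction. Between the tissues they rose from 269 to 624 in controls, from 236 to 1991 in furosemide mice and from 117 to 190 in ACTH mice. The causes were not tested. The number form could not be fitted for ACTH against control.

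With 1 array left out, counts ranged from 7 (without hypothalamus control replicate 1) to 17 for hypothalamus ACTH and from 8 (without control replicate 3) to 23 (without replicate 4) for its gratified group. They ranged from 24 to 37 for brain ACTH and from 25 to 42 for its gratified group, the lowest of each without brain control replicate 3. Over all features the counts of these 4 comparisons ranged from 514 to 1063, 709 to 2445, 1895 to 2979 and 2104 to 3189, in the same order. Member counts of brain furosemide ranged from 0 to 1 and of its gratified group from 0 to 2, beside 0 to 71 and 0 to 446 over all features. Between tissues member counts ranged from 0 to 2 in controls, 0 to 1 in ACTH, 2 to 4 in furosemide and 0 to 1 in furosemide gratified mice, and the furosemide interaction from 0 to 1. Over all features these ranges were 169 to 341, 69 to 170, 126 to 200, 75 to 291 and 1 to 48.

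Replicate numbers did not pair the arrays: same-numbered arrays deviated together with a median correlation of 0.01 in both tissues. With a replicate block 95 of 122 calls were kept. Ties limit 36 of the 114 members, tied on more than 50% of the arrays.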

Other observations

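The features CCL4L1, Tnfrsf1a and Ifna7 (second), chosen after their values were seen, fell into separate levels within groups. CCL4L1 read -1.01, -1.25, 1.43 and 1.5 in brain controls and -1.42 (tied), -1.17, 0.09 and 0.08 in hypothalamus furosemide gratified mice. Tnfrsf1a read -1.30, -1.41, 0.01 and -0.03 in the latter group and -0.49, -1.37, -1.39 and -1.37 in hypothalamus controls. The second Ifna7 feature read 0.73, 0.45 (tied), -0.56 and -0.44 in brain controls. In the hypothalamus furosemide gratified group the split follows the form of the description number, replicates 1 and 2 against 3 and 4; in the 4 brain controls, which share 1 form, it does not.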
